A study of Mus musculus with 18 samples.

Results

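The protease inhibitor genes of the mouse were examined in lung epithelial cells that differ in Wnt signalling. The set holds every gene whose symbol on the array begins with Serpin, Timp, Wfdc, Spint or Spink and goes on with a digit or a letter and a digit, together with A2ml1 and the cystatin genes Cst3, Cst6 and Csta1. Pseudogenes were left out. This gave 98 of the 30710 genes measured, each read from 1 probe set, and all 98 are protein coding in the RefSeq annotation. Slpi, the gene of the secretory leukocyte protease inhibitor, shared its probe set with a microRNA gene, and Serpina1a shared its own with Serpina1d, so neither has a value of its own.

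The cells came from TCF/Lef:H2B/GFP mice aged 8 to 12 weeks, in which TCF and Lef binding elements drive a green fluorescent protein fused to histone H2B, so that the nuclei of cells with Wnt/beta-catenin activity fluoresce. Live EpCAM-positive cells were sorted into GFPhigh, GFPlow and GFPneg fractions (Wnt-high, Wnt-low and Wnt-negative cells) after endothelial and blood cells had been depleted through CD31 and CD45. All 3 groups carry the reporter and were told apart by its signal. Each group has 6 arrays, 1 per experiment number, and each array holds RNA pooled from 3 to 4 animals. Experiment 2 has a Wnt-high array only, and experiment 3 has Wnt-low and Wnt-negative arrays only. Experiments 4, 5, 7, 8 and 9 have all 3 groups. Values listed below follow the experiment number. The first value of experiments 2 to 5 is thus from experiment 2 in Wnt-high and from experiment 3 in the other groups. The tissue is labelled as distal lung, while the protocol names lungs digested together with trachea and bronchi, so airway cells are part of the material.

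Protease inhibitors restrain the enzymes that cut other proteins. Serpins present a loop as bait and are bound for good by the serine protease that cuts it. Clade A serpins are mostly secreted and clade B serpins mostly stay inside the cell, where they block granule and lysosomal proteases. Kunitz, Kazal and whey acidic protein (WAP) domains plug the active site of serine proteases, TIMPs block matrix metalloproteases and ADAM proteases, cystatins block cysteine proteases of the lysosome, and alpha-2-macroglobulin-like proteins enclose a protease in a cage. In the lung these inhibitors are best known for holding neutrophil elastase in check.

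The deposited values are log2 intensities. They reached 19.93, and a log2 difference is therefore a difference on that scale that was not turned into a ratio of RNA. There were 2 runs of arrays, experiments 2 to 5 and experiments 7 to 9, which differ in level by a median of −1.13 over all genes (later minus earlier run) and by −3.45 to −0.05 over the inhibitors. Each run holds 3 arrays of each group, and every comparison below was made within runs. A background line was set for each array at the 95th percentile of its 23 background probe sets, and it lay at 4.82 to 5.17 in experiments 2 to 5 and at 4.57 to 4.92 in experiments 7 to 9. Averaged over 5 epithelial markers the arrays reached 11.95 to 13.29, whereas 10 leukocyte markers averaged 3.66 to 4.92 and 8 fibroblast and smooth muscle markers 3.27 to 5.04. The 7 endothelial markers averaged 3.74 to 5.87. Ptprc, Pecam1 and Col1a2 were under the background line on all 18 arrays, but the macrophage marker Cd68 and the endothelial marker Esam were above it on all 18. The mean level of Cd68 was 6.56 on Wnt-high, 7.25 on Wnt-low and 8.05 on Wnt-negative arrays, that of Esam 5.68, 7.02 and 9.94 in the same order, and that of the endothelial receptor Kdr 6.48, 10.58 and 4.57. The part of such cells in the results was not tested. Arrays of the same group differed in their cell type markers. The mean of 10 alveolar type II markers ran from 12.49 to 16.31 on Wnt-high arrays of the earlier run. It ran from 11.87 to 15.18 on Wnt-high and from 14.99 to 17.23 on Wnt-low arrays of the later run. The Wnt-low arrays of the earlier run differed as well. That of experiment 3 had the highest mean of 11 ciliated cell markers, 13.09 against 9.45 and 11.95 on the others of its run, and that of experiment 4 the highest mean of 10 alveolar type II markers, 17.34 against 15.9 and 16.36, although the Wnt-low array of experiment 9 reached 17.23. Calls of the joint fit were recomputed without the Wnt-low arrays of experiments 3 and 4. These 2 were picked on values of these same data. Leaving them out can also lower the spread, as it did for A2ml1 and Spink5. A call that still passes without them is therefore not independent support.

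Of the 98 inhibitor genes, 66 (67.3%, against 43.4% of all genes) were above the background line on no array, 21 on some and 11 (11.2%, against 32.0% of all genes) on all 18. The 11 were Cst3, Serpinb6a, Serpinb6b, Serpinb9, Serpinf1, Serping1, Spint1, Spint2, Timp2, Timp3 and Wfdc2. The genes lie in clusters, and detection was uneven among them. Of 18 clade A serpins on chromosome 12, 3 rose above the line on any array, namely Serpina6, Serpina9 and Serpina10. Of 27 clade B serpins, 6 of the 16 on chromosome 13 did so, against 1 of the 11 on chromosome 1, Serpinb8. Of 14 WAP genes on chromosome 2, 4 did so (Wfdc2, Wfdc3, Wfdc12 and Wfdc13), and of 12 Kazal genes, 3 did so (Spink1, Spink4 and Spink5). Serpina1b, Serpina1c, Serpina1d and Serpina1e, mouse copies of the alpha-1-antitrypsin gene, and Serpina3n, Timp1, Cst6 and Csta1 were under the line on every array. Paralogs such as Serpinb6a and Serpinb6b or Serpinb9 and Serpinb9b are close in sequence, and how far their probes tell them apart was not tested.

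Because the sort reads TCF and Lef activity, the DNA before the start of the inhibitor genes was searched for the TCF/Lef core CTTTGA and for CTTTGAT, which contains it, on both strands. RefSeq windows (GRCm38.p6, 250 bases before an annotated start) were found for 76 of the 98 genes, 90 windows in all. The core was present in 13 of the 90 (14.44%), against 13.83% of 32851 windows of all genes, and CTTTGAT in 5 of the 90 (5.56%), against 3.21%. The windows of A2ml1, Timp4 and Wfdc3, which were higher in Wnt-high cells, and of Serpind1, which was lower there, are shown 5′ to 3′ on the gene's strand as the members whose levels the results turn on, with a core match in capitals.
A2ml1, chr6:128581607-128581856, minus strand: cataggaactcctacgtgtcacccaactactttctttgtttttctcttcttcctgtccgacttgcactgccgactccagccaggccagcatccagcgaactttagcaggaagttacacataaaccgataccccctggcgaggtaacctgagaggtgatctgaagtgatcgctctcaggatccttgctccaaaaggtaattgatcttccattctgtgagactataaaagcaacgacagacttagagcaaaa
Timp4, chr6:115252206-115252455, minus strand: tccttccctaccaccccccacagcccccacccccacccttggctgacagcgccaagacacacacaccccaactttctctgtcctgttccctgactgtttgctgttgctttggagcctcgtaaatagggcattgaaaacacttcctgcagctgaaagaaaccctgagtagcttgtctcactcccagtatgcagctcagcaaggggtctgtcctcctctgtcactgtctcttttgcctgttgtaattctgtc
Wfdc3, chr2:164743268-164743517, minus strand: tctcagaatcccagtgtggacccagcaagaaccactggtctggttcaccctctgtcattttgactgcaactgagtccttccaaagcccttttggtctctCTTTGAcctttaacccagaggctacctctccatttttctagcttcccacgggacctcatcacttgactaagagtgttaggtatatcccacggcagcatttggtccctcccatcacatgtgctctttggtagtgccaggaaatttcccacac
Serpind1, chr16:17331121-17331370, plus strand: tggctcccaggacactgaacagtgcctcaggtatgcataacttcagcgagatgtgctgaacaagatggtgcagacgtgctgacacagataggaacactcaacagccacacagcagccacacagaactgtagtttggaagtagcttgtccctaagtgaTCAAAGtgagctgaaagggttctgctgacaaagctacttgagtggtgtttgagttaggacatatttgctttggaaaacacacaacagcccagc
The A2ml1 and Timp4 windows hold no match in these letters, and other spellings of a TCF/Lef element were not searched. The Wfdc3 window, which stands before an annotated start other than that of the RefSeq gene record, holds the core on the gene's strand at position −151 from that start. The Serpind1 window holds CTTTGAT on the opposite strand, with the core in it, at position −94. A match is a description of the sequence and not a binding site.

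Wnt-high cells were compared with Wnt-negative cells to ask which inhibitors go with strong reporter signal. A2ml1, Serpina9, Timp4 and Wfdc3 were higher in Wnt-high cells by log2 differences of 2.73 to 7.10, and Spink5, Serpind1, Serpinb9 and Wfdc21 were lower by −2.51 to −3.53. At a limma adjusted p under 0.05, 29 of the 98 genes passed, where 40.0% of all 30710 genes did. Of these, 9 were higher (9.18%, against 15.5% of all genes) and 20 were lower (20.4%, against 24.5%). Many of these calls are small shifts of dim genes. With the further demand that the higher group lie above the background line in both runs, 6 were higher (background 12.1%) and 8 lower (background 17.3%). Some met it narrowly, with higher-group means in experiments 7 to 9 of 4.94 for Wfdc13, 4.98 for Serpinb8 and 5.02 for Wfdc12. The remaining 12 lower genes differed by −0.83 to −0.10 with a median of −0.155. The median log2 difference of all 98 was −0.025, beside −0.047 for all genes tested.

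**Figure D1:**
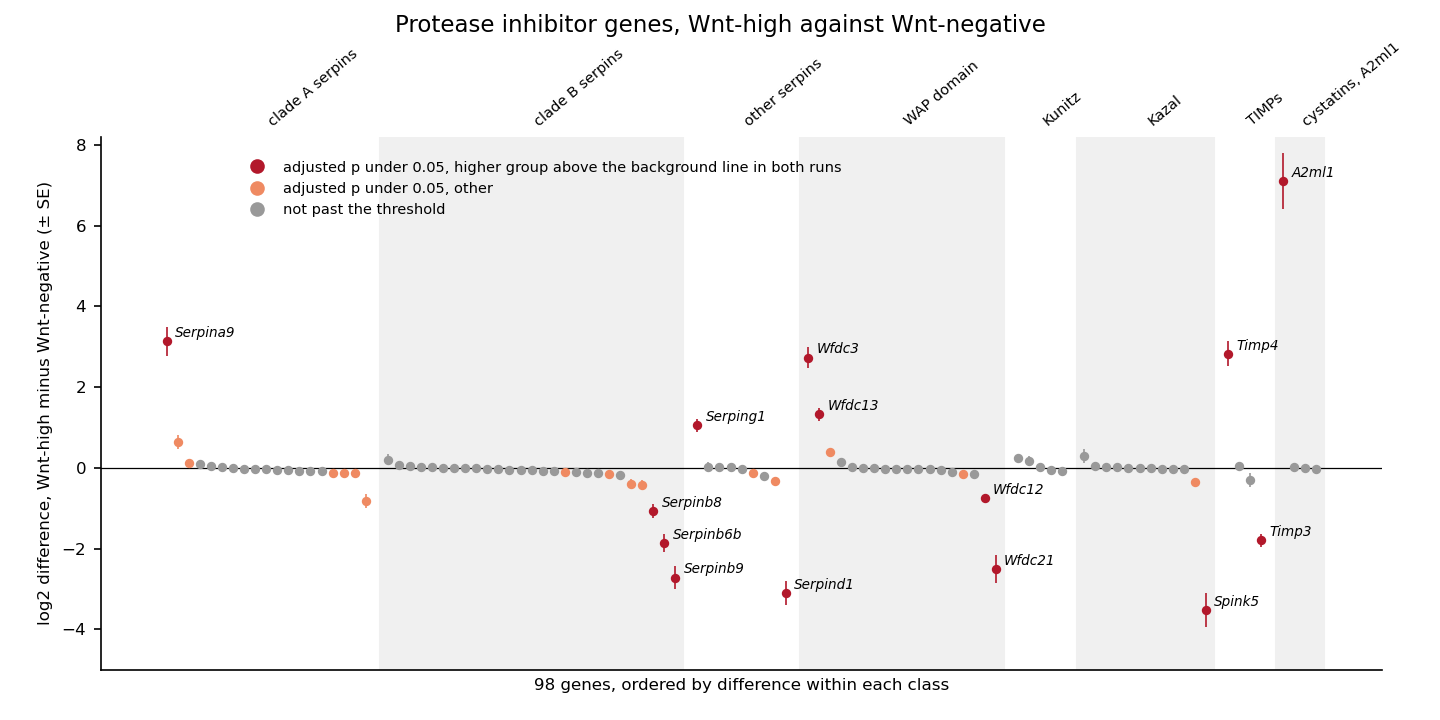
Log2 difference between Wnt-high and Wnt-negative cells (y axis, positive when higher in Wnt-high) for each of the 98 inhibitor genes, ordered by difference within its class along the x axis. Points are estimates of the limma fit with the run as a term and bars are ± SE. Dark red marks genes past the adjusted p threshold of 0.05 whose higher group was above the background line in both runs, 6 above and 8 below 0, orange marks the other genes past the threshold, and grey the rest, which lie close to 0.

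A2ml1 encodes an alpha-2-macroglobulin-like inhibitor of broad range, known from human epidermis. In experiments 2 to 5 it measured 11.26, 11.8 and 11.25 in Wnt-high, 10.54, 5.49 and 7.59 in Wnt-low, and 4.22, 4.43 and 4.5 in Wnt-negative arrays. It measured 11.51, 11.55 and 9.44 in Wnt-high, 4.55, 4.94 and 4.94 in Wnt-low, and 3.86, 3.5 and 3.68 in Wnt-negative arrays in experiments 7 to 9. The Wnt-high arrays were above all Wnt-negative arrays, which lay under the background line throughout, so the log2 difference of 7.10 (SE 0.69, adjusted p = 3.7e-07) has a lower bound of 6.15.

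Timp4, one of the inhibitors of matrix metalloproteases, measured 9.39, 8.07 and 8.68 in Wnt-high, 8.15, 5.89 and 6.83 in Wnt-low, and 5.59, 5.55 and 5.56 in Wnt-negative arrays of experiments 2 to 5. In the later run it measured 6.64, 6.91 and 6.71 in Wnt-high, 4.39, 4.99 and 4.85 in Wnt-low, and 4.2, 4.26 and 4.32 in Wnt-negative arrays. Wnt-high and Wnt-negative arrays did not overlap in either run, and the log2 difference was 2.82 (SE 0.31, adjusted p = 1.31e-06). In experiments 7 to 9 the Wnt-negative arrays were under the background line, as they were for Serpina9.

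Serpina9, a serpin known in human from germinal centre B cells, measured 8.89, 8.69 and 8.85 in Wnt-high against 5.61, 5.7 and 5.77 in Wnt-negative arrays of the earlier run, and 7.41, 7.84 and 7.17 in Wnt-high against 4.31, 4.1 and 4.52 in Wnt-negative arrays of the later run (log2 difference 3.14, SE 0.36, adjusted p = 2.26e-06). Wfdc3, a WAP domain gene, measured 7.9, 7.27 and 7.84 in Wnt-high against 4.65, 4.17 and 4.75 in Wnt-negative arrays of experiments 2 to 5, and 6.33, 6.48 and 6.02 in Wnt-high against 4.14, 3.78 and 3.99 in Wnt-negative arrays of experiments 7 to 9. Neither gene's groups overlapped in either run. The Wfdc3 difference of 2.73 (SE 0.25, adjusted p = 1.76e-07) has a lower bound of 1.99, since every Wnt-negative array was under the background line. Another WAP gene, Wfdc13, ranged from 4.75 to 6.7 in Wnt-high and from 3.68 to 4.95 in Wnt-negative arrays over both runs and differed by 1.33 (SE 0.16, adjusted p = 4.52e-06) with a lower bound of 0.68.

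Serping1, the C1 inhibitor that blocks the first proteases of the complement cascade and plasma kallikrein, measured 7.58, 7.64 and 7.12 in Wnt-high against 6.29, 6.22 and 6.35 in Wnt-negative arrays of the earlier run, and 6.31, 5.81 and 5.81 in Wnt-high against 5.08, 4.96 and 5.1 in Wnt-negative arrays of the later run. All Wnt-high arrays of a run lay above its Wnt-negative arrays, with a log2 difference of 1.05 (SE 0.17, adjusted p = 7.5e-05). Serpina6, the corticosteroid carrier that does not inhibit proteases, was higher by 0.63 (SE 0.17, adjusted p = 0.00688) and Wfdc1, a secreted WAP protein, by 0.39 (SE 0.10, adjusted p = 0.0035). For both, Wnt-high cells were under the background line in experiments 7 to 9.

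Cell type markers moved with these genes. All 11 measured ciliated cell markers, of 12 listed, were higher in Wnt-high cells, with a median log2 difference of 8.35, and their mean was 13.47 to 14.37 on Wnt-high arrays, 8.79 to 13.09 on Wnt-low arrays and 5 to 7.41 on Wnt-negative arrays. Between 3 and 11 of the 11 were above the background line on a Wnt-negative array. The 8 club cell markers were also higher, by a median of 3.47. So were 6 of 8 goblet and mucous cell markers, with 1 lower and a median of 4.45 over the 8. Of 4 measured neuroendocrine markers 2 were higher, with a median of 1.31 over the 4. Whether these genes follow the share of any of these cells was not tested. In sorted bulk cells fewer cells of a type and less RNA per cell cannot be told apart.

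**Figure D2:**
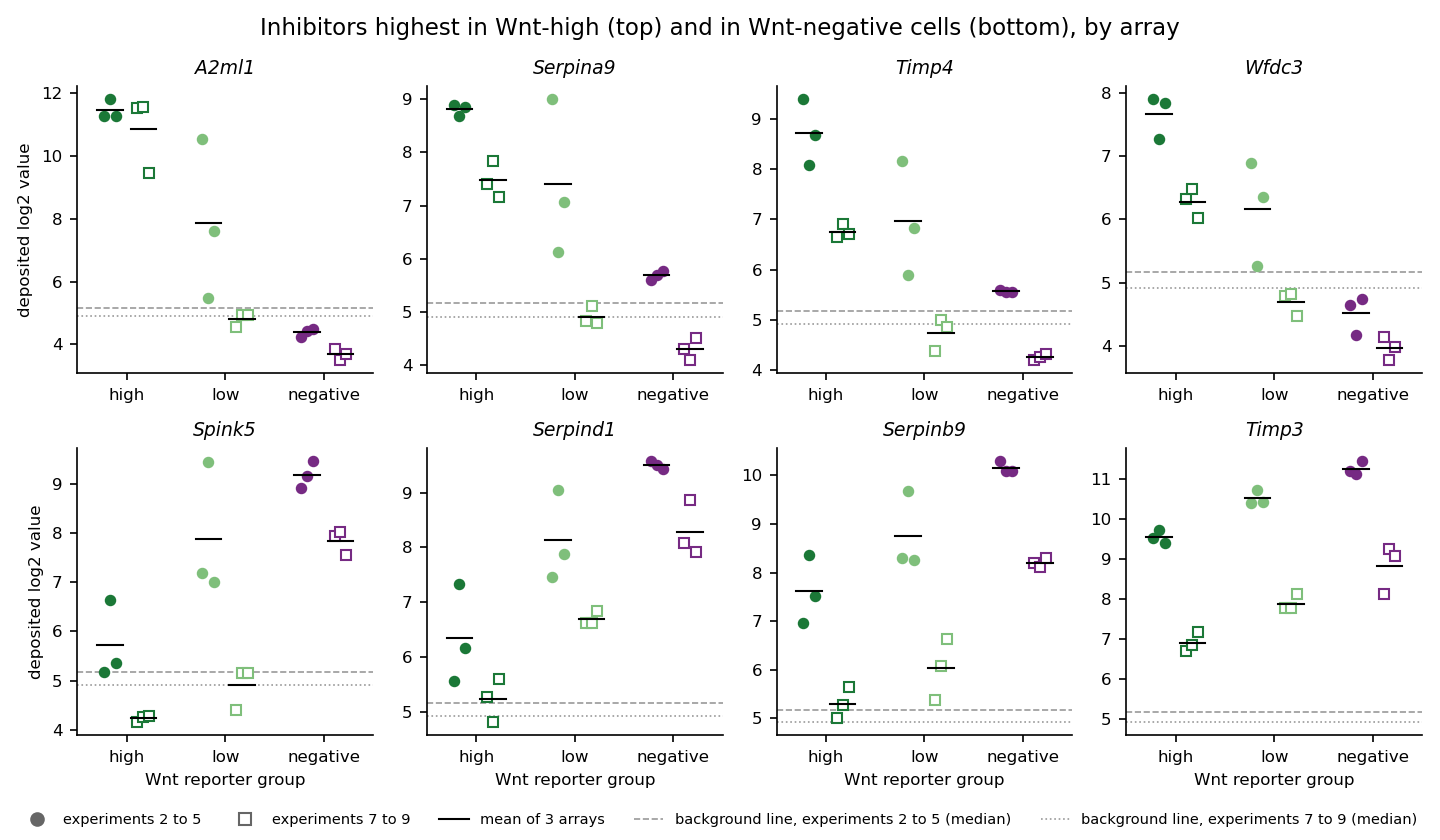
Deposited log2 values (y axis) of A2ml1, Serpina9, Timp4 and Wfdc3 in the top row and Spink5, Serpind1, Serpinb9 and Timp3 in the bottom row, by Wnt reporter group (x axis). Each point is 1 array, filled circles for experiments 2 to 5 and open squares for experiments 7 to 9, black bars are means of 3 arrays, and the dashed and dotted lines are the background of the earlier and later run. Wnt-high arrays lie above Wnt-negative arrays of the same run in the top row and below them in the bottom row, and Wnt-low arrays lie mostly between, with single Wnt-low arrays close to either group.

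Of the 20 genes lower in Wnt-high cells, Spink5 had the largest log2 difference. It encodes LEKTI, a chain of Kazal-type domains that restrains kallikreins in skin. Spink5 measured 5.18, 6.64 and 5.35 in Wnt-high, 7.19, 9.45 and 7.01 in Wnt-low, and 8.92, 9.16 and 9.46 in Wnt-negative arrays of experiments 2 to 5. Levels in experiments 7 to 9 were 4.15, 4.26 and 4.28 in Wnt-high, 4.4, 5.16 and 5.16 in Wnt-low, and 7.95, 8.02 and 7.55 in Wnt-negative arrays. The groups Wnt-high and Wnt-negative did not overlap, and the log2 difference was −3.53 (SE 0.42, adjusted p = 3.26e-06). The Wnt-high arrays of the later run were under the background line, so the difference of −3.61 in that run compares measured levels with background, and the Wnt-negative mean was at least 2.92 above that line.

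Serpind1, heparin cofactor II, which blocks thrombin, measured 5.57, 7.33 and 6.16 in Wnt-high, 7.47, 9.05 and 7.88 in Wnt-low, and 9.57, 9.5 and 9.43 in Wnt-negative arrays of experiments 2 to 5. Values of the later run were 5.28, 4.81 and 5.61 in Wnt-high, 6.63, 6.63 and 6.85 in Wnt-low, and 8.08, 8.87 and 7.91 in Wnt-negative arrays. The order Wnt-negative, Wnt-low, Wnt-high held without overlap in each run, and Wnt-high differed from Wnt-negative by −3.10 (SE 0.29, adjusted p = 2.62e-07).

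The clade B serpins on chromosome 13 include the Serpinb6 and Serpinb9 families. Serpinb9, which shields cells from granzyme B, measured 6.97, 8.37 and 7.51 in Wnt-high against 10.29, 10.09 and 10.09 in Wnt-negative arrays of the earlier run, and 5, 5.27 and 5.65 in Wnt-high against 8.2, 8.11 and 8.31 in Wnt-negative arrays of the later run. Its log2 difference was −2.72 (SE 0.28, adjusted p = 8.88e-07), with no overlap. Serpinb6b, an inhibitor of granzyme A in the mouse, ranged from 10.74 to 11.62 in Wnt-high against 12.84 to 12.96 in Wnt-negative arrays of experiments 2 to 5, and from 8.02 to 8.62 in Wnt-high against 10.28 to 10.41 in Wnt-negative arrays of experiments 7 to 9 (log2 difference −1.86, SE 0.23, adjusted p = 5.08e-06). Serpinb8, on chromosome 1 and known as an inhibitor of furin in human, was lower by −1.07 (SE 0.18, adjusted p = 1.01e-04). Of the 27 clade B serpins 7 were lower in Wnt-high cells at this threshold, 3 of them with Wnt-negative cells above the background line in both runs, and none was higher, where 24.5% of all genes were lower and 15.5% higher.

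Timp3, the TIMP that binds to the extracellular matrix and also blocks ADAM17, measured 9.51, 9.72 and 9.39 in Wnt-high, 10.4, 10.71 and 10.42 in Wnt-low, and 11.18, 11.12 and 11.43 in Wnt-negative arrays of the earlier run. The later run gave 6.71, 6.84 and 7.18 in Wnt-high, 7.77, 7.77 and 8.11 in Wnt-low, and 8.12, 9.24 and 9.08 in Wnt-negative arrays. Levels were stepped in both runs, and Wnt-high differed from Wnt-negative by −1.80 (SE 0.16, adjusted p = 1.27e-07). Timp4 and Timp3 thus differed in opposite directions between the same cells. The WAP genes Wfdc21 and Wfdc12 were lower by −2.51 (SE 0.35, adjusted p = 1.94e-05) and −0.76 (SE 0.10, adjusted p = 8.95e-06). Wfdc21 ranged from 6.67 to 7.61 in Wnt-high against 10.02 to 10.32 in Wnt-negative arrays of experiments 2 to 5, and from 4.72 to 5.43 in Wnt-high against 6.24 to 7.5 in Wnt-negative arrays of experiments 7 to 9.

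Alveolar type II markers moved with the genes that were lower. Of the 10 markers, 9 were lower in Wnt-high cells, by a median of −3.43, and their mean was 11.87 to 16.31 on Wnt-high arrays, 14.99 to 17.34 on Wnt-low arrays and 17.51 to 18.47 on Wnt-negative arrays. On each array 9 or 10 of the 10 were above the background line. Within the Wnt-high group the array of experiment 4 had the highest alveolar type II mean of its run, 16.31, and also the highest Spink5, Serpind1, Serpinb9, Serpinb6b, Wfdc21 and Timp3 values of the 3 Wnt-high arrays of its run. Of those 3 arrays it also had the highest club (15.6), goblet and mucous (11.52) and alveolar type I (9.38) marker means. The same held for its mesothelium (6.11), endothelium (5.32) and fibroblast and smooth muscle (4.88) means, while its ciliated mean was the lowest, 13.83. Some other marker means were neither. Alveolar type I markers were lower too, 8 of 9 with a median of −2.6 over the 9, and 1 was higher. The part of type I and type II cells in these differences was not tested.

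Several abundant inhibitors were close to level between Wnt-high and Wnt-negative cells. Cst3, cystatin C, ranged from 15.43 to 15.5 in Wnt-high against 15.38 to 15.4 in Wnt-negative arrays of the earlier run and from 14.88 to 14.92 in Wnt-high against 14.92 in Wnt-negative arrays of the later run, a log2 difference of 0.02 (SE 0.04, adjusted p = 0.766). Spint1 and Spint2, the membrane-bound Kunitz inhibitors of matriptase, differed by 0.02 (SE 0.10, adjusted p = 0.887) and 0.16 (SE 0.12, adjusted p = 0.337). Wfdc2, a WAP protein of airway secretions, differed by −0.10 (SE 0.05, adjusted p = 0.124), Serpinb6a by 0.02 (SE 0.04, adjusted p = 0.716) and Serpinf1, which is secreted and does not inhibit proteases, by 0.02 (SE 0.13, adjusted p = 0.923). Timp2 differed by −0.30 (SE 0.17, adjusted p = 0.163), and by −0.47 with adjusted p = 0.0381 without experiment 4. Serpinh1, a collagen chaperone among the serpins, differed by −0.21 (SE 0.09, adjusted p = 0.0719), and by −0.24 with adjusted p = 0.0182 without experiment 4. Without the Wnt-low arrays of experiments 3 and 4, which changes only the shared spread of this comparison, Serpinh1 had adjusted p = 0.0272 and Serpina3n 0.0589. Serpina3n and Serpina1c, both under the background line, had adjusted p = 0.0493 and 0.0247 at differences of −0.13 and −0.14. With the experiment number as a block Serpina3n had adjusted p = 0.0576, and both missed the threshold when single experiments were left out.

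The next comparison, of Wnt-low with Wnt-negative cells, asks what goes with weak reporter signal. A2ml1 had the largest difference among genes higher in Wnt-low cells, 2.31. Wfdc1, Serpinb1a, Spink1 and Serpinf1 were higher by log2 differences of 1.01 to 1.60, as were Wfdc3, Serpina9 and Serping1, given below. Spink5, Serpinb9, Wfdc21, Serpinb6b and Serpind1 were lower by −1.47 to −2.11. The Wnt-low means of A2ml1, Wfdc3, Serpina9 and Spink1 were not above the background line in both runs. Of the 98 genes 28 passed, beside 25.3% of all genes, 14 of them higher (14.3%, against 12.2% of all genes) and 14 lower (14.3%, against 13.1%), shares close to the background. Above the background line in both runs, 8 were higher (background 10.0%) and 7 lower (background 9.58%). The median log2 difference was −0.018, beside −0.029 for all genes. The Wnt-low arrays of experiments 3 and 4 set these counts little, since 14 and 14 were called without them, but without experiment 5 there were 9 and 9. The share of all genes called in those fits is not given here.

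Wfdc1 measured 5.45, 5.98 and 5.77 in Wnt-high, 6.86, 6.71 and 6.69 in Wnt-low, and 5.1, 5.25 and 5.24 in Wnt-negative arrays of experiments 2 to 5. In experiments 7 to 9 the values were 4.42, 4.55 and 4.6 in Wnt-high, 6.12, 5.77 and 5.88 in Wnt-low, and 4.33, 4.13 and 4.39 in Wnt-negative arrays. Wnt-low arrays were the highest of each run without overlap, and Wnt-low differed from Wnt-negative by 1.60 (SE 0.10, adjusted p = 4.25e-08).

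Serpinb1a, an inhibitor of neutrophil elastase and cathepsin G, showed the same peak. It measured 4.75, 5.23 and 4.92 in Wnt-high, 6.48, 6.06 and 5.78 in Wnt-low, and 4.54, 4.65 and 4.64 in Wnt-negative arrays of the earlier run, and in the later run 4.19, 3.96 and 3.97 in Wnt-high, 5.36, 5.81 and 5.28 in Wnt-low, and 4.34, 3.64 and 4.02 in Wnt-negative arrays. All Wnt-negative arrays were under the background line, so the log2 difference between Wnt-low and Wnt-negative of 1.49 (SE 0.14, adjusted p = 2.7e-06) has a lower bound of 0.81. Spink1, the trypsin inhibitor of the pancreas, ranged from 4.22 to 6.28 in Wnt-low and from 3.06 to 4.18 in Wnt-negative arrays (log2 difference 1.41, SE 0.18, adjusted p = 3.53e-05). For Spink1 the Wnt-low arrays of experiments 3 and 5 were the 2 above the background line, which leaves a bound of 0.04.

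Serpinf1 and Timp2 were measured above the background line on every array. Serpinf1, known as pigment epithelium-derived factor, measured 7.56, 7.61 and 7.56 in Wnt-low against 6.94, 6.94 and 6.45 in Wnt-negative arrays of experiments 2 to 5, and 6.67, 6.68 and 6.38 in Wnt-low against 5.67, 5.16 and 5.27 in Wnt-negative arrays of experiments 7 to 9, which gives 1.01 (SE 0.13, adjusted p = 3.08e-05). Timp2, which inhibits metalloproteases and also takes part in the activation of MMP2, measured 9.74, 9.86 and 9.58 in Wnt-low against 9.24, 8.69 and 9.05 in Wnt-negative arrays of the earlier run, and 8.25, 8.42 and 7.66 in Wnt-low against 7.62, 7.01 and 6.87 in Wnt-negative arrays of the later run, a log2 difference of 0.84 (SE 0.17, adjusted p = 0.00126). For both, Wnt-low arrays exceeded all Wnt-negative arrays of their run. Serping1 was higher in Wnt-low cells by 1.06 (SE 0.17, adjusted p = 2.13e-04).

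The Kunitz gene Spint1 ranged from 12.98 to 13.37 in Wnt-low against 12.63 to 12.69 in Wnt-negative arrays of the earlier run, and from 12.28 to 12.61 in Wnt-low against 11.31 to 11.77 in Wnt-negative arrays of the later run, with no overlap and a log2 difference of 0.71 (SE 0.10, adjusted p = 1.27e-04). Spint2 was higher by 0.45 (SE 0.12, adjusted p = 0.0125), but its groups overlapped in both runs and it had adjusted p = 0.0691 at 0.36 without experiment 5. Wfdc2 was higher by 0.24 (SE 0.05, adjusted p = 0.00271), with adjusted p = 0.0603 at 0.16 under quantile normalization over all arrays and 0.174 at 0.17 in experiments 7 to 9 alone. Without the Wnt-low arrays of experiments 3 and 4 the difference from Wnt-negative cells was 1.63 for Wfdc1, 1.42 for Serpinb1a, 1.67 for Spink1, 1.03 for Serpinf1, 0.85 for Timp2, 1.03 for Serping1, 0.85 for Spint1, 0.47 for Spint2 and 0.19 for Wfdc2, and all 9 still passed. Serpinb8 missed the threshold at 0.49 (SE 0.18, adjusted p = 0.0542) and passed it with the experiment number as a block (adjusted p = 0.00964) and without experiment 2 (adjusted p = 0.0244) or 4 (0.46, adjusted p = 0.0466). Experiment 2 holds no Wnt-low or Wnt-negative array, so leaving it out changes only the shared spread of this comparison.

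**Figure D3:**
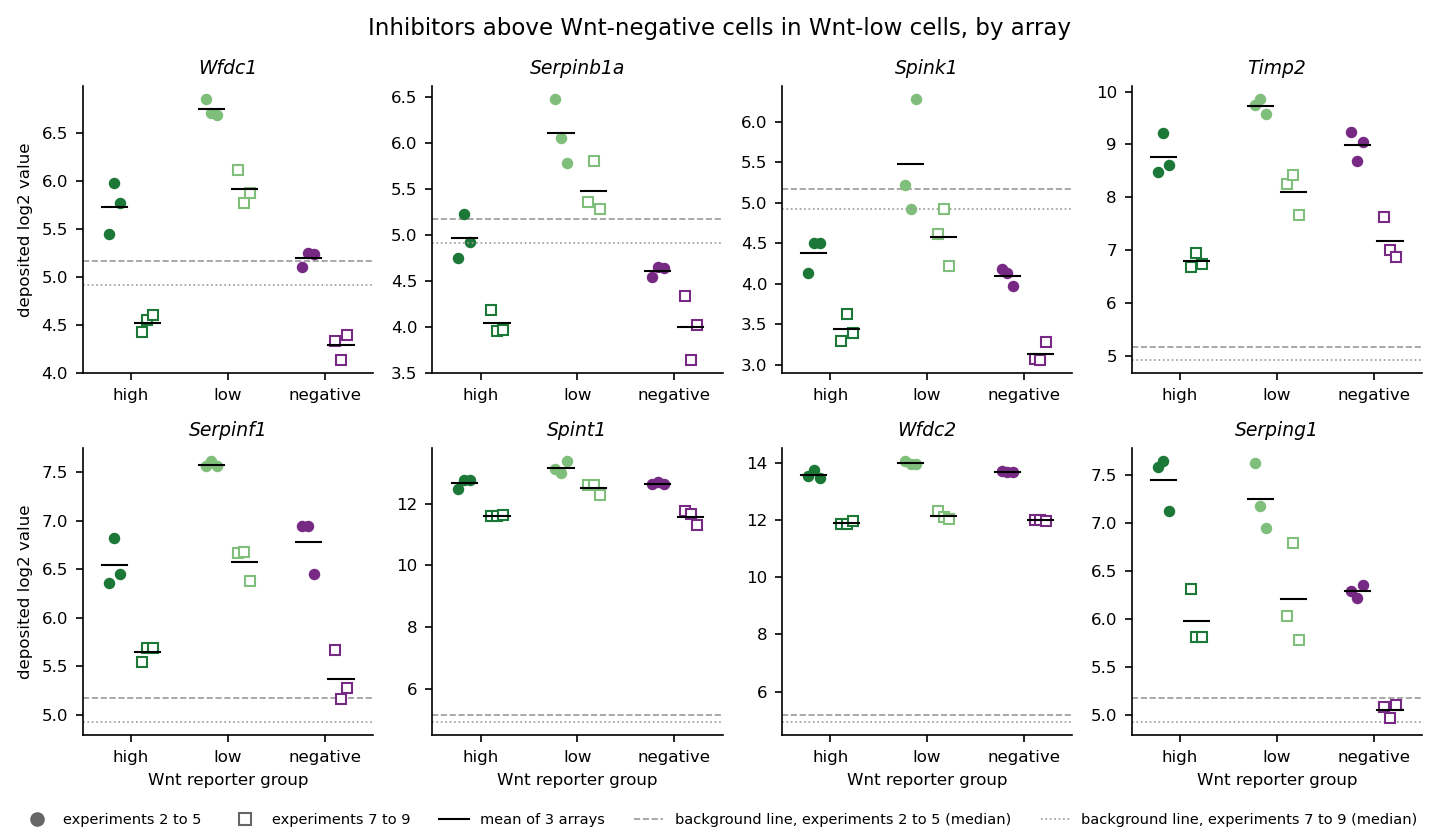
Deposited log2 values (y axis) of Wfdc1, Serpinb1a, Spink1, Timp2, Serpinf1, Spint1, Wfdc2 and Serping1 by Wnt reporter group (x axis), with 1 point per array, filled circles for experiments 2 to 5, open squares for experiments 7 to 9, black bars for means of 3 arrays and the background of each run as dashed and dotted lines. In 7 of the 8 genes the Wnt-low mean is the highest of the 3 groups in each run, and Serping1 is alike in Wnt-high and Wnt-low arrays.

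Of the genes that led in Wnt-high cells, A2ml1, Wfdc3, Serpina9 and Timp4 were also above Wnt-negative cells in Wnt-low cells, by 2.31 (SE 0.69, adjusted p = 0.0204), 1.19 (SE 0.25, adjusted p = 0.00187), 1.15 (SE 0.36, adjusted p = 0.0259) and 0.94 (SE 0.31, adjusted p = 0.033). In experiments 7 to 9 the Wnt-low mean was 4.81 for A2ml1, 4.7 for Wfdc3, 4.92 for Serpina9 and 4.74 for Timp4, none of them above the mean background line of 4.92 of those arrays, and the Wnt-negative arrays were under the line too. Over both runs the lower bound was 1.35 for A2ml1 and 0.45 for Wfdc3. The Wnt-low array of experiment 3 was the highest of the 3 in its run for each of them. Without the Wnt-low arrays of experiments 3 and 4 the differences were 1.74 (adjusted p = 0.00901) for A2ml1, 1.14 (adjusted p = 0.0013) for Wfdc3, 0.83 (adjusted p = 0.00137) for Serpina9 and 0.78 (adjusted p = 0.0196) for Timp4. Single experiments decided some of these calls. Without experiment 5 the difference was 2.15 with adjusted p = 0.088 for A2ml1, 1.13 with adjusted p = 0.0925 for Serpina9 and 0.87 with adjusted p = 0.126 for Timp4. Without experiment 8 Serpina9 had adjusted p = 0.0688, and Timp4 had adjusted p = 0.0838 without experiment 8, 0.0871 (at 0.61) without experiment 3 and 0.0665 without experiment 9.

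Both comparisons with Wnt-negative cells share the Wnt-negative arrays. Against them, in Wnt-low cells, Spink5 was lower by −2.11 (SE 0.42, adjusted p = 0.00126), Serpinb9 by −1.79 (SE 0.28, adjusted p = 2.27e-04), Wfdc21 by −1.64 (SE 0.35, adjusted p = 0.00234) and Serpinb6b by −1.50 (SE 0.23, adjusted p = 1.6e-04). Serpind1 was lower by −1.47 (SE 0.29, adjusted p = 0.00126), Timp3 by −0.83 (SE 0.16, adjusted p = 9.5e-04) and Wfdc12, an antibacterial WAP protein in the mouse, by −0.46 (SE 0.10, adjusted p = 0.00244). The Wnt-low array of experiment 4 was the highest Wnt-low array of its run for 6 of these 7, all but Wfdc12, and its Spink5 value of 9.45 lay among the Wnt-negative values of 8.92 to 9.46. Without the Wnt-low arrays of experiments 3 and 4 Spink5 differed by −2.69 (SE 0.27, adjusted p = 4.59e-06) and Serpinb9 by −2.05 (SE 0.26, adjusted p = 3.96e-05), Wfdc21 by −1.79, Serpinb6b by −1.82, Serpind1 by −1.60, Timp3 by −0.88 and Wfdc12 by −0.53. All 7 still passed, and Serpinh1, which missed the threshold with all arrays, passed at −0.26 (SE 0.08, adjusted p = 0.0271).

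Markers of secretory airway cells were higher in Wnt-low cells. All 8 goblet and mucous cell markers were higher than in Wnt-negative cells, by a median of 10.54, with means of 7.87 to 11.52 on Wnt-high arrays, 12.32 to 14.11 on Wnt-low arrays and 4.53 to 6.11 on Wnt-negative arrays, and 7 of 8 club cell markers were higher by a median of 4.87. On Wnt-negative arrays 3 to 5 of the 8 goblet and mucous markers were above the background line. The 6 airway basal cell markers averaged 3.88 to 5.36 on Wnt-low arrays, and 2 of the 6 were higher than in Wnt-negative cells. All 11 ciliated cell markers were higher than in Wnt-negative cells too, by a median of 4.47, as were 2 of 4 neuroendocrine markers. Lower were 5 of 9 alveolar type I markers (median −1.21 over the 9) and 3 of 10 alveolar type II markers (median −0.91 over the 10). The part of these cells in the Wnt-low peak of Wfdc1, Serpinb1a, Spink1, Timp2, Serpinf1, Spint1 and Wfdc2 was not tested.

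The last comparison, of Wnt-high with Wnt-low cells, asks what separates strong from weak signal. A2ml1, Serpina9, Timp4, Wfdc3 and Wfdc13 were higher in Wnt-high cells by 1.11 to 4.79, and Serpind1, Serpinb8, Serpinb1a, Wfdc1, Timp2 and Spink1 were lower by −1.12 to −1.63. Of the 98 genes 19 passed, beside 27.6% of all genes, 6 of them higher (6.12%, against 11.4%) and 13 lower (13.3%, against 16.2%). Above the background line in both runs, 6 were higher (background 9.01%) and 10 lower (background 13.4%). The median was −0.012 for the set and −0.013 for all genes. Cell type markers differed as well. All 11 ciliated cell markers were higher in Wnt-high than in Wnt-low cells, by a median of 3.56, all 8 goblet and mucous cell markers were lower, by −3.45, and so were 5 of 8 club cell (median −1.07), 5 of 10 alveolar type II (median −2.48) and 4 of 9 alveolar type I markers (median −0.6, 1 higher). Their part in the differences below was not tested.

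A2ml1 was higher in Wnt-high than in Wnt-low cells by 4.79 (SE 0.69, adjusted p = 5.13e-05), and the difference was 3.57 in experiments 2 to 5 and 6.02 in experiments 7 to 9. The Wnt-low array of experiment 3, at 10.54, came closest to the Wnt-high arrays, and without it and that of experiment 4 the difference was 5.36 (SE 0.44, adjusted p = 9.53e-07). Serpina9 was higher by 1.99 (SE 0.36, adjusted p = 4.1e-04), Timp4 by 1.88 (SE 0.31, adjusted p = 1.58e-04), Wfdc3 by 1.54 (SE 0.25, adjusted p = 1.37e-04) and Wfdc13 by 1.11 (SE 0.16, adjusted p = 6.22e-05). Without the same pair of arrays these were 2.31, 2.03, 1.59 and 1.13. Serpina9 at 9 and Timp4 at 8.15 on the Wnt-low array of experiment 3 overlapped the Wnt-high values of that run. For Wfdc13 the Wnt-low arrays of experiments 7 to 9 were under the background line, and the difference in that run has a lower bound of 0.02. Serpinb6a was called at 0.11 (SE 0.04, adjusted p = 0.0471), with adjusted p = 0.0557 under the experiment block and 0.0611 to 0.122 without experiment 2, 4, 5, 7, 8 or 9.

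Serpinb8 stayed under the background line in Wnt-high cells of the later run, at 4.2, 4.17 and 4.23, against 5.89, 5.37 and 5.51 in Wnt-low arrays. In experiments 2 to 5 it measured 5.18, 6.39 and 5.37 in Wnt-high against 7.33, 7.67 and 7.1 in Wnt-low arrays, and the joint log2 difference was −1.56 (SE 0.18, adjusted p = 8.31e-06). Serpind1 differed by −1.63 (SE 0.29, adjusted p = 3.73e-04), Serpinb1a by −1.29 (SE 0.14, adjusted p = 6.85e-06), Wfdc1 by −1.21 (SE 0.10, adjusted p = 1.16e-06) and Timp2 by −1.14 (SE 0.17, adjusted p = 5.56e-05). None of these genes overlapped between Wnt-high and Wnt-low arrays in either run. For Serpinb1a, 1 of the 6 Wnt-high arrays was above the background line, and in experiments 7 to 9, where none was, the difference has a bound of 0.56 in size. Without the Wnt-low arrays of experiments 3 and 4 the differences were −1.47 for Serpinb8, −1.50 for Serpind1, −1.22 for Serpinb1a, −1.24 for Wfdc1 and −1.16 for Timp2.

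Timp3 differed between Wnt-high and Wnt-low cells by −0.97 (SE 0.16, adjusted p = 1.59e-04), Serpinf1 by −0.99 (SE 0.13, adjusted p = 1.89e-05), Spint1 by −0.68 (SE 0.10, adjusted p = 9.03e-05) and Wfdc2 by −0.34 (SE 0.05, adjusted p = 8.34e-05). Spink1 differed by −1.12 (SE 0.18, adjusted p = 1.35e-04), with a bound of 0.04 in size. Spint2 did not pass at −0.29 (SE 0.12, adjusted p = 0.099), but had adjusted p = 0.0458 at −0.38 without experiment 4.

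Of the lower calls, those of Spink5, Serpinb9 and Wfdc12 depended on single experiments or arrays. Spink5, at −1.42 (SE 0.42, adjusted p = 0.0167), was −0.84 (adjusted p = 0.0302) without the Wnt-low arrays of experiments 3 and 4 and had adjusted p = 0.0624 at −1.37 without experiment 5. Serpinb9, at −0.93 (SE 0.28, adjusted p = 0.0213), had adjusted p = 0.0796 at −0.67 without that pair of arrays and 0.054 to 0.066 without experiment 2, 5, 8 or 9. Wfdc12, at −0.30 (SE 0.10, adjusted p = 0.0303), had adjusted p = 0.145 at −0.23 without the pair, 0.115 at −0.22 under the experiment block and 0.0781 to 0.101 without experiment 2, 3, 4 or 5. For Spink5 and Wfdc12 the means of both groups in experiments 7 to 9 were under the background line.

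**Figure D4:**
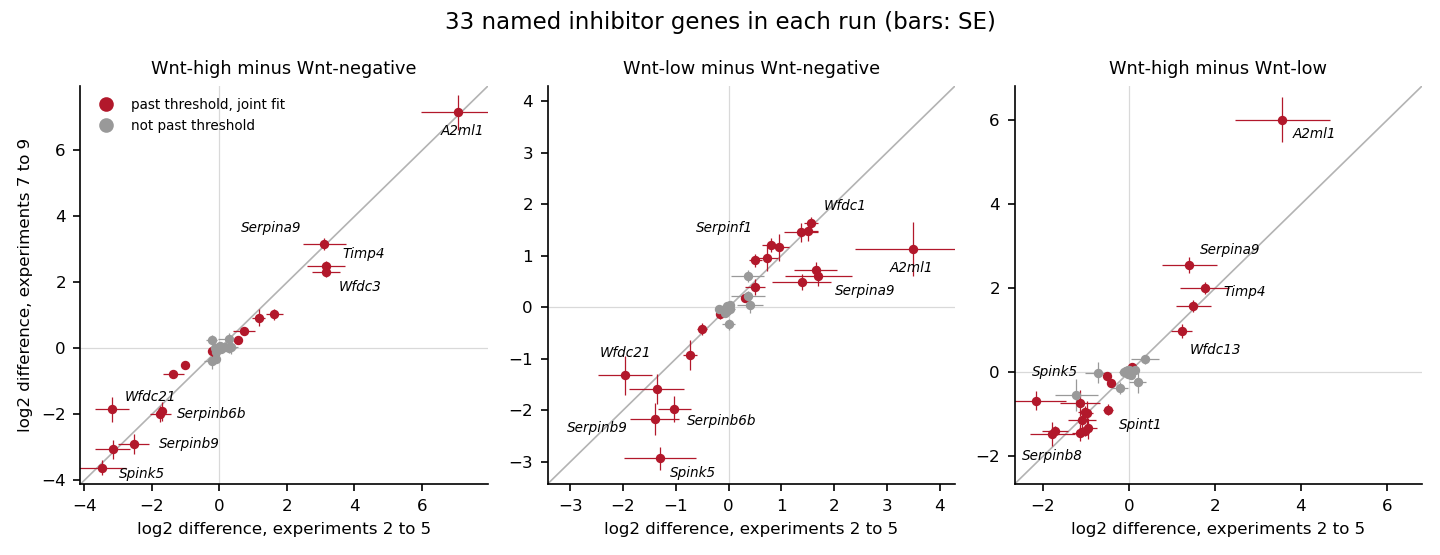
Log2 differences of the 33 named inhibitor genes in experiments 2 to 5 (x axis) against those in experiments 7 to 9 (y axis), in 1 panel per comparison, with bars for the SE within each run and a grey line where both runs are equal. Red points passed the threshold in the joint fit. Points farther from the line include A2ml1 with 3.49 in experiments 2 to 5 and 1.13 in experiments 7 to 9 and Spink5 with −1.30 and −2.93, both for Wnt-low minus Wnt-negative, and Wfdc21 with −3.18 and −1.85 for Wnt-high minus Wnt-negative.

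Over the 3 comparisons the genes fell into a few orders of level. Of the 98, 60 passed in no comparison. How often all genes take each order was not counted, so the counts below have no background share. Wnt-high over Wnt-low over Wnt-negative was found for 4 genes (A2ml1, Serpina9, Timp4 and Wfdc3), and the reverse order for 5 (Spink5, Serpind1, Serpinb9, Timp3 and Wfdc12). For A2ml1, Serpina9 and Timp4 the step from Wnt-negative to Wnt-low passed in the joint fit but in neither run alone. The same held for the step between Wnt-low and Wnt-high of Spink5 and Serpinb9. That step of Wfdc12 did not pass in experiments 7 to 9 alone, at −0.09. In that run the Wnt-low means of Spink5 (4.91) and Wfdc12 (4.61) were under the mean background line of 4.92. Wnt-negative over both others was found for 9. Of these, Serpinb6b and Wfdc21 were above the background line in Wnt-negative cells in both runs. The other 7 were not above it in both runs (Serpina10, Serpina3n, Serpinb6c, Serpinb6e, Serpinb9b, Serpinf2 and Spink14). Wnt-low over both others was found for 6 (Serpinb1a, Serpinf1, Spink1, Spint1, Timp2 and Wfdc2). Wfdc1 was ordered Wnt-low, Wnt-high, Wnt-negative, Wfdc13 was above both others in Wnt-high, Serpinb8 below both in Wnt-high, and Serping1 below both in Wnt-negative cells. The 4 TIMP genes took 4 different courses, with Timp4 highest in Wnt-high, Timp2 in Wnt-low and Timp3 in Wnt-negative cells and Timp1 under the background line in all.

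**Figure D5:**
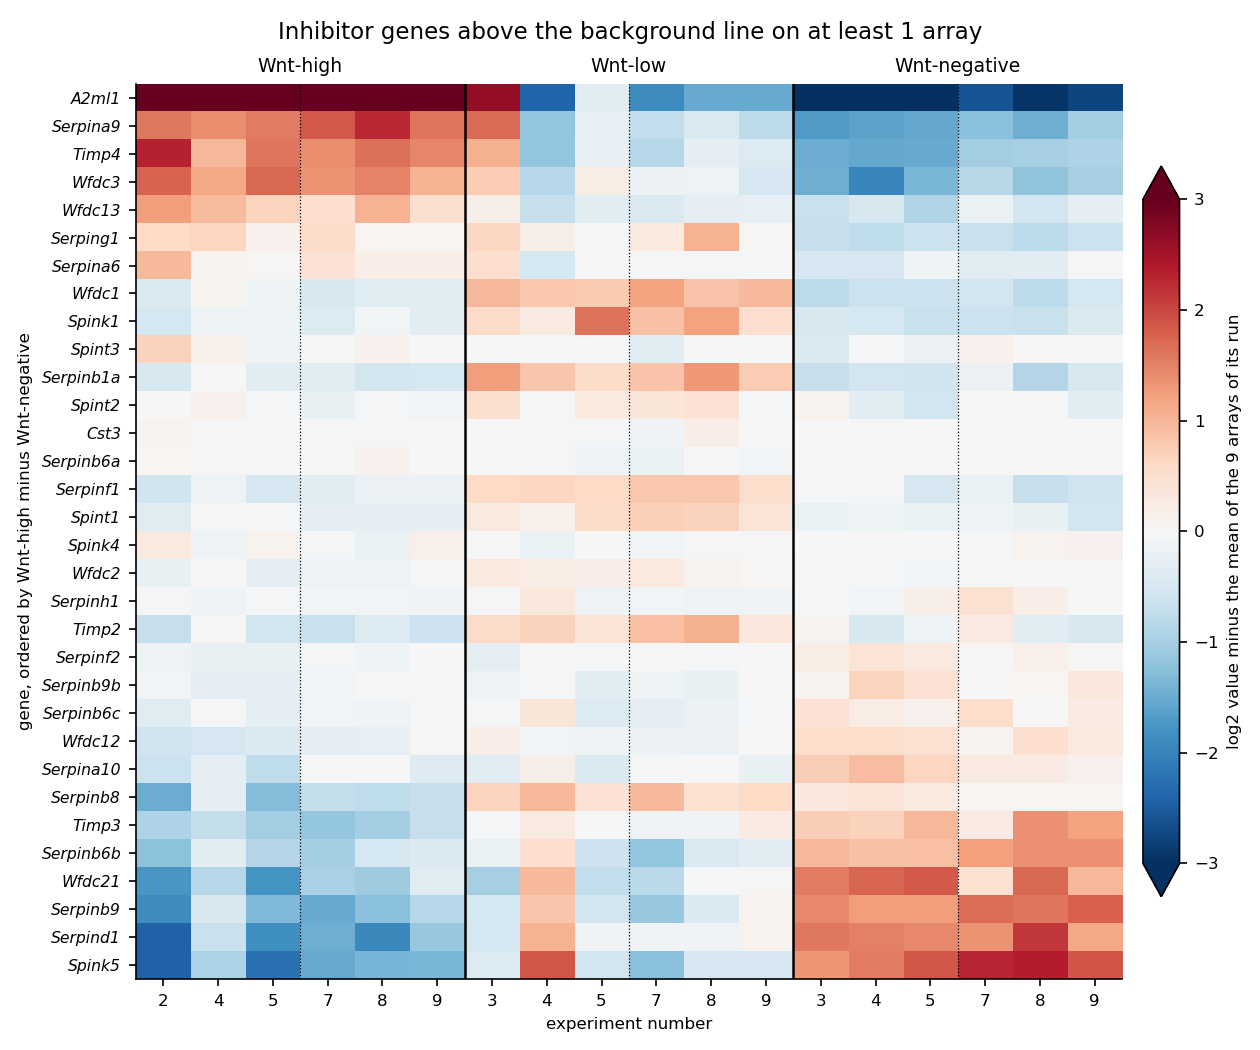
Log2 values of the inhibitor genes above the background line on at least 1 array (rows, ordered by Wnt-high minus Wnt-negative) on the 18 arrays (columns, by group and experiment number), each shown as the difference from the mean of the 9 arrays of its run, with colours saturating at 3 in size. Wnt-high arrays are red at the top and blue at the bottom and Wnt-negative arrays the reverse, Wnt-low arrays are red for Wfdc1, Spink1, Serpinb1a, Serpinf1, Spint1 and Timp2, and the Wnt-low array of experiment 3 resembles Wnt-high in the top rows while that of experiment 4 resembles Wnt-negative in the bottom rows.

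Proteases were read beside the inhibitors from a list of 60 protease and related genes, of which 58 were measured. The list was not limited to targets of these inhibitors. In Wnt-high against Wnt-negative cells 9 of the 58 were higher and 20 lower (15.5% and 24.5% of all genes), in Wnt-low against Wnt-negative cells 15 and 9 (12.2% and 13.1% of all genes), and in Wnt-high against Wnt-low cells 5 and 18 (11.4% and 16.2% of all genes). Lysosomal proteases made up 9 of the 20 lower in Wnt-high against Wnt-negative cells, out of 14 measured, with a median log2 difference of −0.965 beside −0.047 for all genes. The dipeptidyl peptidase Ctsc, which activates granule proteases, was lower by −6.48 (SE 0.83, adjusted p = 8.02e-06), Napsa, the aspartic protease of type II cells that trims surfactant protein B, by −6.15 (SE 1.17, adjusted p = 4.03e-04), and the cathepsin Ctsz by −4.05 (SE 0.34, adjusted p = 7.58e-08). Ctsb and Ctsl were lower in Wnt-high than in Wnt-low cells, by −2.0 (SE 0.21, adjusted p = 6.05e-06) and −1.92 (SE 0.20, adjusted p = 4.53e-06), while their inhibitor Cst3 differed by −0.01 (SE 0.04, adjusted p = 0.895). Under quantile normalization over all arrays Cst3 was at 0.46 in that comparison.

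Metalloproteases differed in both directions, as the TIMPs did. Adam8, a membrane metalloprotease, measured 11.94, 12.1 and 12.97 in Wnt-high against 5.82, 5.53 and 5.62 in Wnt-negative arrays of experiments 2 to 5, and 11.44, 11.53 and 10.66 in Wnt-high against 4.03, 3.96 and 4.26 in Wnt-negative arrays of experiments 7 to 9, a difference of 6.90 (SE 0.51, adjusted p = 2.26e-08). Of the aggrecan-cutting enzymes, Adamts5 was higher in Wnt-high cells by 4.24 (SE 0.35, adjusted p = 6e-08), with a lower bound of 3.55, and also in Wnt-low cells, by 4.38, while Adamts1 was lower in Wnt-high cells by −3.64 (SE 0.39, adjusted p = 1.25e-06). Each differed without overlap between those groups.

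Among serine proteases and their receptors, the kallikrein Klk11 was above its Wnt-negative level in Wnt-high cells by 3.85 (SE 0.33, adjusted p = 1.08e-07), with a lower bound of 2.96, and so was F3, tissue factor, the cell-surface receptor of coagulation factor VII and not itself a protease, by 3.69 (SE 0.29, adjusted p = 4.44e-08). Tmprss2, a membrane protease that also primes viral envelope proteins, was higher in Wnt-low than in Wnt-negative cells by 2.0 (SE 0.21, adjusted p = 7.35e-06), and Tmprss4 was lower by −1.44 (SE 0.21, adjusted p = 1.3e-04). Matriptase (St14) and prostasin (Prss8), chosen after their values were seen as targets of Spint1 and Spint2, differed between Wnt-high and Wnt-negative cells by −0.20 (SE 0.09, adjusted p = 0.0871) and −1.18 (SE 0.25, adjusted p = 0.00101). Elane, Prtn3, Ctsg and Gzmb, proteases of neutrophils and cytotoxic lymphocytes that Serpinb1a and Serpinb9 are known to block, were likewise chosen after their values were seen, and all 4 were under the background line on every array, at 2.72 to 4.42.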

How the data were processed

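RNA from sorted lung epithelium was hybridised to Affymetrix arrays, 18 in all. The authors deposited log2 intensities made by RMA, per the submitters' processing notes. The sources used here do not name the software version. The 2 runs differ in level and in number of decimals (5 and 6), and were treated as separately normalized.

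Genes were read from probe sets with 1 gene symbol (31051 of 65770 without controls, 1534 with several and 33185 with none), taking the set with the highest mean over 18 arrays and updating 841 symbols through RefSeq. Differences were fitted with limma 3.58.1 in R 4.3.3 on all 30710 genes and 18 arrays, with the run as a term, a Benjamini-Hochberg adjustment over all genes of a comparison and a threshold of 0.05. The fit was tried on simulated data with independent noise on each array. That simulation held neither the shared deviations of same-experiment arrays nor exact ties, so it cannot show how the fit deals with them. Signal is judged against the background line only, and the number of arrays limits the precision. Nothing in the labels says that pools within a group share animals or not, so p-values measure the spread between these arrays.

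The members, the protease list and the marker lists were chosen with earlier results of these data known. Named were, in each comparison, the 8 highest and the 8 lowest differences among called members whose higher group was above the median of all genes in both runs, and a list of well-known members. Proteases were named by the same rule with 4 each way. The experiment number, which the labels give, pairs arrays of different groups. Deviations of the 16 same-experiment pairs correlated at 0.006 to 0.513, and 12 of 16 above 0.1. Alternatives were the experiment as a block, each run alone, other normalizations, filters and variance models, and leaving out arrays.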

Additional observations from a re-analysis of the deposited data

Results flagged for a closer look

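Of 99 groups of 6 arrays tested, 33 named genes in 3 groups each, 16 held an array whose gap to the nearest of the others was large for the range of the group. Values here are log2 values minus the mean of the 9 arrays of the run. Chance marks about 1 in 20 groups where values are independent and free of ties. Many inhibitor genes carry exact ties, given below, so that rate does not hold for them. A few are well above the background line. The Wnt-low array of experiment 4 was highest for Spink5 at 1.85, against −1.26 to −0.41 on the others, and for Serpinh1 at 0.3, against −0.15 to −0.04. The Wnt-low array of experiment 3 was highest for Serpina9 at 1.7, against −1.17 to −0.24. The Wnt-high array of experiment 4 was highest for Timp2 at 0.04, against −0.68 to −0.42. Spint1 was lowest on the Wnt-negative array of experiment 9, at −0.58, against −0.22 to −0.12. Serpinb6a was highest on the Wnt-high array of experiment 8, at 0.13.

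The other 10 concern genes under the background line on every array. Cst6 was lowest at −0.06 on the Wnt-high array of experiment 2. Serpina1b was highest at 0.12 on the Wnt-high array of experiment 9, at 0.13 on the Wnt-low array of experiment 3 and at 0.03 on the Wnt-negative array of experiment 4. Serpina1c and Serpina1d were both lowest at −0.18 on the Wnt-high array of experiment 4. Serpina1d was also lowest at −0.13 on the Wnt-low array of experiment 8 and highest at 0.17 on the Wnt-negative array of experiment 3. Serpina1e was highest at 0.31 on the Wnt-high array of experiment 2 and lowest at −0.15 on the Wnt-negative array of experiment 5.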

How the results depend on the processing

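Of 99 results for the 33 named genes, 58 passed the threshold, and 45 of these missed it under at least 1 of 20 other settings, 43 of them with no run term. The counts of inhibitor genes moved most there. Counts under these settings are given without the share of all genes called in the same fit. A change in them is therefore not a result about inhibitors. With no run term 5 were higher and 3 lower in Wnt-high against Wnt-negative cells, 3 and 0 in Wnt-low against Wnt-negative, and 2 and 2 in Wnt-high against Wnt-low. Beside the count of 0 from limma, 3 inhibitors were lower at an unadjusted p under 0.05, and no other tool was run. In that fit the offset between runs is part of the spread. Experiments 2 to 5 alone gave 12 lower in Wnt-high against Wnt-negative cells, 7 higher and 4 lower in Wnt-low against Wnt-negative, and 1 higher in Wnt-high against Wnt-low. Experiments 7 to 9 alone gave 9 lower in the first comparison and 9 higher and 5 lower in the second. Both hold fewer arrays. A filter on dim genes, which left 15536 genes, gave 8 lower in the first comparison and 7 lower in the second. Leaving out 1 experiment gave 8 to 9 higher and 14 to 18 lower in Wnt-high against Wnt-negative cells, 9 to 15 and 9 to 14 in Wnt-low against Wnt-negative, and 5 to 6 and 10 to 14 in Wnt-high against Wnt-low. Without experiment 5 the second comparison had 9 and 9. The replicate block (experiment number as a block) gave 8 and 15, 14 and 14, and 5 and 12, and changed no call of a named gene other than those given for Serpina3n, Serpinb8, Serpinb6a and Wfdc12. Cst3 in Wnt-high against Wnt-low cells reversed from −0.01 to 0.46 under quantile normalization over all arrays, and the cause was not tested. Genes near the background line have compressed differences.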

Other observations

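Many inhibitor genes carry the same value, to the last deposited decimal, on several arrays of a run. At least 5 of the 9 arrays shared 1 exact value for 27 of the 98 inhibitors (27.6%) in experiments 2 to 5 and for 39 (39.8%) in experiments 7 to 9, beside 14.8% and 20.6% of all genes. Serpinb6a, above the background line on all 18 arrays, had 5 arrays at 1 value in each run. Its call in Wnt-high against Wnt-low cells, at 0.11, is among the smallest differences that passed.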
